A study of Homo sapiens with 6 samples.

Results

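The 25 probes described here were those of the study's list of upregulated lncRNAs whose gene symbol is an official name without a period, such as a LINC, antisense, intronic transcript or pseudogene name, rather than a genomic clone name such as AC007319.1. They carried 22 symbols and made up 25 of the 245 listed probes, beside 213 clone-named probes and 7 probes of LINC00152, PCBP1-AS1 and PCAT1, which were left out. All 25 were found by probe name among the 58965 transcript probes of the array. The list was made from the same comparison of LNCaP-AI with LNCaP, with limits of 2 on the fold change and 0.01 on the unadjusted p, so the differences given below describe the values that chose the probes, and the calls counted on them are no independent test. Among the 25 the smallest difference was 2.01-fold, for a probe of LINC00281, and the nearest unnamed probe outside that limit, at a p inside the other, had 1.999-fold. The p nearest the other limit was 0.00691 among the 25, for MAGI2-AS3, and 0.0101 for the nearest unnamed probe outside it.

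LNCaP is a human prostate cancer cell line that depends on androgen, kept here in medium with fetal bovine serum. LNCaP-AI is 1 derivative line of it, grown for a long term in charcoal-stripped serum, from which steroid hormones are largely removed, so serum, time in culture and the derivation of the line cannot be told apart. RNA of each line was hybridized to 3 one-color Arraystar arrays, called replicates a, b and c for LNCaP and 1, 2 and 3 for LNCaP-AI, and the labels do not say whether these came from separate cultures, so the SDs describe the spread between arrays. Slide 1 held LNCaP replicates a and b, and slide 2 held the 3 LNCaP-AI arrays together with LNCaP replicate c. Each array had 64.5% to 67.3% of its probes well above background, by the flag of the Feature Extraction software, and Pearson's r across probes, which are not independent replicates, was 0.980 to 0.990 within a line and 0.962 to 0.971 between the lines. The identity of the cells could not be checked against KLK3 or TMPRSS2, which luminal prostate cells express, because nearly all probes come without a gene name. In bulk RNA, more cells with a transcript and more transcript per cell cannot be told apart.

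Long noncoding RNAs are transcripts without a known protein product. Antisense lncRNAs run opposite to a coding gene and can act on that gene in cis, while LINC names are given to lncRNAs that lie between coding genes. Pseudogenes are copies of coding genes that have lost the open reading frame or the regulation of the parent, and some are still transcribed, so that a probe may read the copy, the parent or other copies of the family. No probe sequence was used here, and which copies a probe reads was not tested. In the RefSeq annotation of GRCh38.p14, used for names, 20 of the 22 genes were found, as 10 lncRNAs, 8 pseudogenes of which 6 are marked as transcribed, and 2 protein-coding genes, SPATA1 and TUBA4B, although the study's list gives both as noncoding transcripts. DLX6-AS2 and DSCR4-IT1 were not matched, LINC00281 is now FAM230C, and TTY15 and TTY22 are now TTTY15 and TTTY22.

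RefSeq promoter sequences, 250 bases before to 50 bases after a start site, were matched for 10 of the 22 genes, in 11 entries. They were searched on both strands for the TATA box TATAAA, a core promoter motif. The TATA box was in 1 of the 11, that of TUBA4B, and in 11.5% of all promoters. Shown are that promoter and the one of LINC00459, which had the largest difference measured on every array among the genes with a promoter entry. They are written 5′ to 3′ on the strand of the gene, with the motif match in capitals, from chr2:219252993-219253292 (plus strand) and chr13:62323407-62323706 (plus strand) of GRCh38.p14.
TUBA4B: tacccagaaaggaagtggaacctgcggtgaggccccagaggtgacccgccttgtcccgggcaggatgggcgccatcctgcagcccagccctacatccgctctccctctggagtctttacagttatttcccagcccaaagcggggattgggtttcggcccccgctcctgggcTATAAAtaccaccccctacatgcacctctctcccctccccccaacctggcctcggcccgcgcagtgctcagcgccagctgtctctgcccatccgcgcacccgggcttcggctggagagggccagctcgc
LINC00459: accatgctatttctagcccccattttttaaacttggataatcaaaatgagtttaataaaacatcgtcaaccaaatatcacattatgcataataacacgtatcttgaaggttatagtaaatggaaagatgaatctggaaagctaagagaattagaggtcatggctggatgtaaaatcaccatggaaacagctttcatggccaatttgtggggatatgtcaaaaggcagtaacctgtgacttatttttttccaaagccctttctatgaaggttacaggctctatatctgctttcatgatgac
The TATA box lay 79 bases before the start of TUBA4B. The GC content was 65.7% for TUBA4B and 35.7% for LINC00459, against a median of 58.7% over all promoters. A match is a description of the letters and not a bound site.

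All 25 probes were well above background on the 3 LNCaP-AI arrays, and so were all 245 probes of the list. In LNCaP, 18 of the 25 had that flag on all 3 arrays, 3 on 1 array and 4 on none. For the last 4 only a bound on the difference can be given, which sets the LNCaP-AI mean against, on each LNCaP array, the value of the probe or, where this is higher, the smallest well-above-background signal of that array. The median difference over those 18 probes was 2.35-fold, with a range of 2.01-fold to 5.53-fold, and 5 of them reached 3-fold, with SPATA1 just below it. Over the 34923 tested probes that were well above background on all 6 arrays, the median log2 fold change was -0.02. With undetected LNCaP arrays set to that lowest signal, 22 of the 25 probes were at least 2-fold higher in LNCaP-AI.

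**Figure D1:**
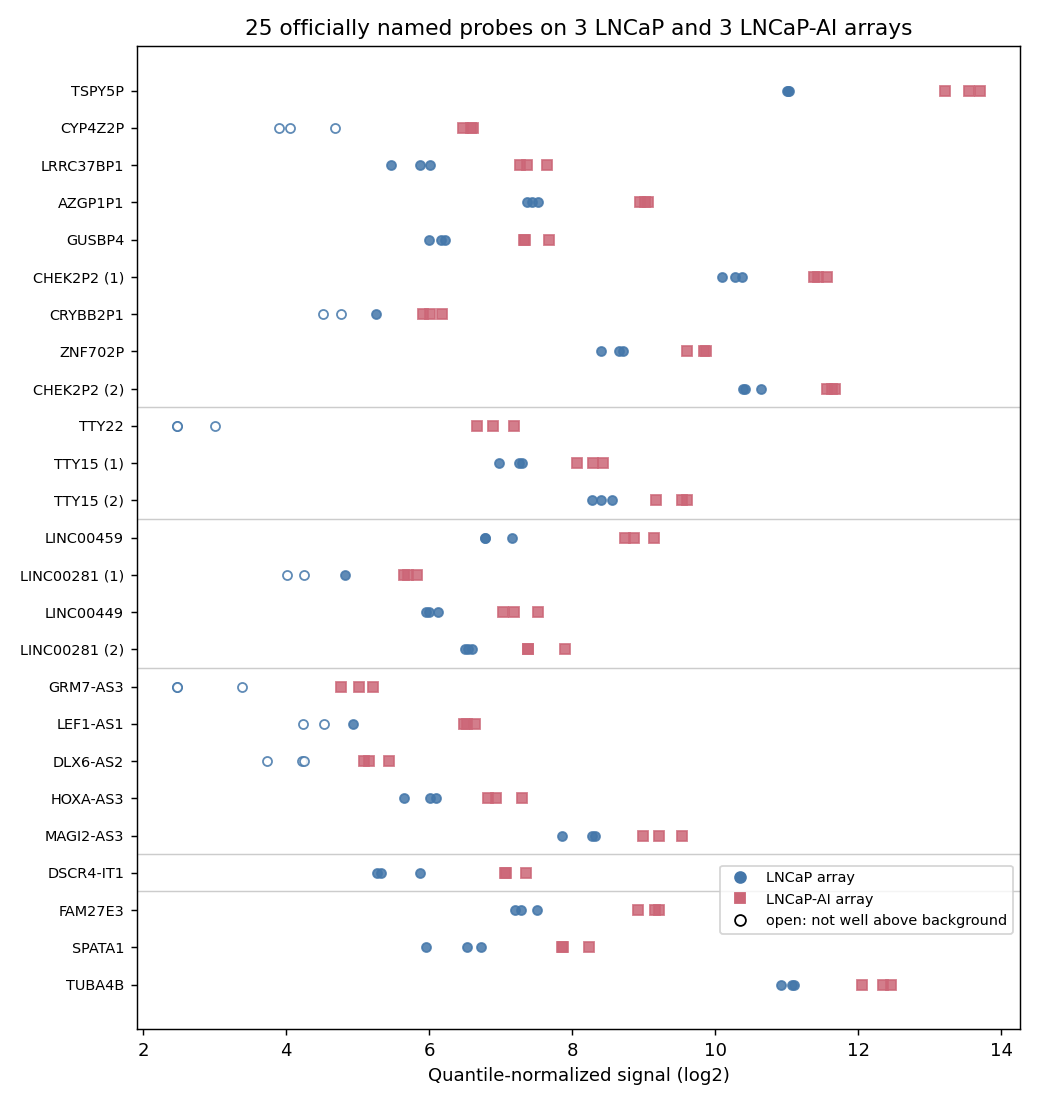
Quantile-normalized log2 signal (x axis) of the 25 officially named probes (y axis, grouped by name class) on each LNCaP array (circles) and each LNCaP-AI array (squares), with open symbols for arrays on which the probe was not well above background. In every row the 3 LNCaP-AI arrays lie to the right of the 3 LNCaP arrays, and open symbols occur in LNCaP only. Where a symbol has 2 probes, (1) marks the one with the larger fold.

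In each of the 25 probes every LNCaP-AI array was above every LNCaP array, which held for 16.5% of the 39088 tested probes in that direction. Nothing is read from this count or from the counts of calls in this paragraph, because the list was chosen on this contrast and these arrays, and the 4 probes without detection in LNCaP entered the fit through their LNCaP-AI values. The gap between the lowest LNCaP-AI array and the highest LNCaP array ran from 0.62 to 3.66 on the log2 scale and was at least 1 for 13 probes. The 3.66 was for TTY22, and the largest gap among probes measured on every array was 2.18, for TSPY5P. The 13 include TTY22, CYP4Z2P, GRM7-AS3 and LEF1-AS1, none of which was well above background on all 3 LNCaP arrays. A gap of at least 1 was also found for 130 of the 213 clone-named probes, and the share of all tested probes was not counted. limma, fitted on all tested probes with Benjamini-Hochberg adjustment, called 25 of the 25 higher (2-fold or more, with 0.05 as the limit of the adjusted p), a call made for 2.82% of tested probes. A fold of at least 2 was reached by 3.29% of tested probes. The methods' t-test at the limits of the list, which are those that made it, held for 25 of 25 and for 2.27% of tested probes, and after Benjamini-Hochberg adjustment for 21 of 25 and for 1.95%. The 4 that missed the adjusted limit were probes of HOXA-AS3, MAGI2-AS3, LINC00281 and CRYBB2P1. With 1 array left out, the count within the list's limits fell to 19, 18 and 16 of 25 without LNCaP replicates a, b and c. Without LNCaP-AI replicates 1, 2 and 3 it was 14, 15 and 13 of the 21 probes that still passed the filter. The share of all tested probes was not counted for these fits.

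Pseudogene names made up 9 probes under 8 symbols. TSPY5P, a pseudogene of the TSPY family of testis-specific genes on the Y chromosome, had deposited background-subtracted intensities of 2579, 1877 and 1861 on the LNCaP arrays, in the order a, b, c used throughout, and of 12281, 10852 and 10891 on LNCaP-AI arrays 1, 2 and 3. The LNCaP-AI arrays stood far above those of LNCaP, and after normalization the log2 means were 11.02 ± 0.02 (SD, n = 3) for LNCaP and 13.49 ± 0.25 (SD, n = 3) for LNCaP-AI. The difference of 5.53-fold was the largest among the 18 probes measured on every array. CYP4Z2P, a copy of a cytochrome P450 gene of the fatty acid hydroxylase family, had intensities of 29.96, 15.0 and 14.9 in LNCaP and 87.2, 105 and 84.8 in LNCaP-AI. It was not well above background on any LNCaP array. That leaves a bound of at least 3.31-fold, from the background-subtracted intensities after quantile normalization. Every bound given here holds for that signal and background handling only.

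The other pseudogene probes measured on every array lay between 2.21-fold and 3.12-fold. LRRC37BP1, a copy from the LRRC37 family of leucine-rich repeat genes, had intensities of 69.7, 40.6 and 64.2 in LNCaP and 175, 171 and 156 in LNCaP-AI, a 3.12-fold difference after normalization. AZGP1P1 neighbours AZGP1, which encodes a zinc-binding glycoprotein secreted by prostate epithelium. Its intensities were 226, 159 and 162 in LNCaP and 451, 608 and 460.4 in LNCaP-AI, and its normalized log2 signals, 7.44 ± 0.08 (SD, n = 3) and 9.01 ± 0.06 (SD, n = 3), differed by 2.96-fold. The arrays of each line were close together, and no LNCaP array came within 1.42 log2 of the LNCaP-AI arrays. GUSBP4, a copy of the beta-glucuronidase gene, had intensities of 89.4, 65.9 and 63.2 in LNCaP and 142, 176 and 192 in LNCaP-AI, 2.50-fold higher in the latter. ZNF702P, a zinc finger pseudogene, had intensities of 520.4, 311 and 389 in LNCaP and of 805, 1075 and 726 in LNCaP-AI, a 2.27-fold difference. The normalized values of both genes were separate between the lines. CRYBB2P1, a copy of a lens crystallin gene, was well above background only on LNCaP replicate b. Its intensities of 31.7, 35 and 22.9 in LNCaP and 65.1, 65.0 and 61.6 in LNCaP-AI gave at least 2.11-fold once the undetected arrays were set to the lowest detected signal.

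CHEK2P2, a copy of the DNA damage checkpoint kinase gene CHEK2, was listed with 2 probes. The probe listed for transcript ENST00000566448 had intensities of 1636, 1122 and 1024 in LNCaP and 2722, 3115 and 2627 in LNCaP-AI. That of ENST00000555186 had 1966, 1209 and 1272 in LNCaP and 2969, 3519.9 and 2984 in LNCaP-AI. Both probes placed all LNCaP-AI arrays above all LNCaP arrays, by 2.32-fold and 2.21-fold. These probes may read overlapping sequence and are not replicates of each other.

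TTY names, given to testis-specific transcripts of the Y chromosome, made up 3 probes. TTY22 had intensities of 6.44, 5.37 and 7.90 in LNCaP and of 127, 111 and 113 in LNCaP-AI. On 2 of the 3 LNCaP arrays its value was the lowest intensity listed on the array, and it was not well above background on any of them, so the size of the difference is given only as a bound of at least 4.24-fold. The 2 probes of TTY15, which lies next to the deubiquitinase gene USP9Y, were measured on every array. The first, for ENST00000457658, had intensities of 193, 140.2 and 123 in LNCaP and 299, 301 and 292 in LNCaP-AI. The other, for ENST00000543097, had 469, 309 and 302 in LNCaP and 678, 658 and 689 in LNCaP-AI. Their differences of 2.13-fold and 2.03-fold lay close to the limit of the list. With TSPY5P, 4 of the 25 probes under 3 symbols belonged to names of Y-linked genes, and their differences ranged from 2.03-fold to 5.53-fold where measured on every array.

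LINC names made up 4 probes. LINC00459 had intensities of 133, 132 and 108 in LNCaP and 495, 484 and 438 in LNCaP-AI. The lines were well separated, with normalized log2 signals of 6.91 ± 0.22 (SD, n = 3) and 8.92 ± 0.21 (SD, n = 3), a 4.03-fold difference. LINC00449, which lies between LINC01232 and the endosomal membrane protein gene TM9SF2, had intensities of 74.0, 58.9 and 68.9 in LNCaP and 159, 144 and 138 in LNCaP-AI, 2.32-fold higher. LINC00281 had 2 probes that differed in detection. The probe of ENST00000416405 was well above background on every array, with 112, 88.9 and 89.5 in LNCaP and 206, 184 and 158 in LNCaP-AI, a 2.01-fold difference. The probe of ENST00000431488 was well above background only on LNCaP replicate a, with 33.1, 17.4 and 16.2 in LNCaP and 45.5, 61.0 and 50.2 in LNCaP-AI. Its fitted 2.57-fold became at least 1.84-fold with the undetected arrays set to the lowest detected signal.

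Antisense names made up 5 probes, of which 2 were measured on every array. MAGI2-AS3 overlaps MAGI2, which encodes a scaffold protein of cell junctions. Its intensities were 287, 292 and 302 in LNCaP and 646, 580.3 and 559.6 in LNCaP-AI, 2.14-fold higher. HOXA-AS3, which overlaps HOXA3, HOXA5, HOXA6 and HOXA7 of the homeobox cluster that patterns the body axis, had intensities of 58.9, 59.1 and 67.9 in LNCaP and 100.1, 135 and 148 in LNCaP-AI, also 2.14-fold higher. Both pairs of values were separate between the lines, but they were among the 4 probes past the list's limits that missed the adjusted limit of the methods' t-test. LEF1-AS1 overlaps LEF1, which encodes a transcription factor of the Wnt pathway. It was well above background on 1 LNCaP array, replicate c, with intensities of 26.7, 17.2 and 30.5 in LNCaP and 88.7, 101 and 85.2 in LNCaP-AI, at least 3.23-fold higher. DLX6-AS2, named for the homeobox gene DLX6, and GRM7-AS3, named for a glutamate receptor gene, were not well above background on any LNCaP array. DLX6-AS2 had 21.7, 17.4 and 13.3 in LNCaP and 39.8, 35.6 and 34.7 in LNCaP-AI, and GRM7-AS3 had 6.44, 5.37 and 10.3 in LNCaP and 25.6, 33.5 and 35.9 in LNCaP-AI. Their bounds were only 1.32-fold and 1.12-fold, so the size of the difference is unmeasured. Both had the flag on the LNCaP-AI arrays only, which the filter of 3 arrays requires of a probe undetected in LNCaP. On LNCaP-AI arrays 1, 2 and 3, 12.8%, 3.09% and 6.85% of the well-above-background probes were as dim as DLX6-AS2 or dimmer. For GRM7-AS3 these shares were 1.94%, 1.69% and 7.69%. The probes of the coding genes MAGI2, LEF1, GRM7 and DLX6 could not be told from the unnamed probes, so lncRNA and partner were not compared.

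The intronic transcript DSCR4-IT1, named for its host gene DSCR4, had intensities of 47.3, 35.5 and 58.3 in LNCaP and 143, 148 and 126 in LNCaP-AI, 3.18-fold higher. Of the remaining symbols, FAM27E3, 1 copy of the multicopy FAM27 family, had 223, 136 and 153 in LNCaP and 518, 551 and 538 in LNCaP-AI, a 3.39-fold difference. The deposited LNCaP-AI intensities of FAM27E3 were close together, but after normalization the SD was 0.16 log2 in each line. SPATA1, named for spermatogenesis, had 73.7, 96.9 and 91.1 in LNCaP and 202, 259.8 and 282 in LNCaP-AI, 3.00-fold higher with an SD of 0.40 log2 in LNCaP. TUBA4B, an alpha-tubulin gene that overlaps its neighbour TUBA4A, had 2663, 1967 and 1778 in LNCaP and 5092, 4828 and 4834 in LNCaP-AI, 2.38-fold higher. Each of these probes was detected on all 6 arrays, with no overlap between the lines.

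Clone-named probes of the same list passed the same limits, and the 2 name classes were set side by side without a test, since probes are not replicates. The flag for well above background was set on all 6 arrays for 61.0% of the clone-named probes and 72.0% of the officially named ones. Among all tested probes this share was 89.3%. Of the clone-named probes 28.6% were not detected on any LNCaP array, against 16.0% of the officially named ones. For the 130 clone-named probes with that flag on all 6, the median difference was 2.68-fold and 44 reached 3-fold. The highest was 34.4-fold, for 1 probe of AC007319.1, while other probes of that gene had 10.6-fold and 5.84-fold. The highest officially named value, 5.53-fold, lay within the range of the clone-named probes. Within the officially named classes the medians over probes measured on every array were 2.50-fold for the 7 pseudogene probes, 2.08-fold for the 2 TTY probes, 2.32-fold for the 3 LINC probes, 2.14-fold for the 2 antisense probes and 3.00-fold for the 3 other symbols. With 1 to 7 probes in a class, these medians rest on single genes.

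**Figure D2:**
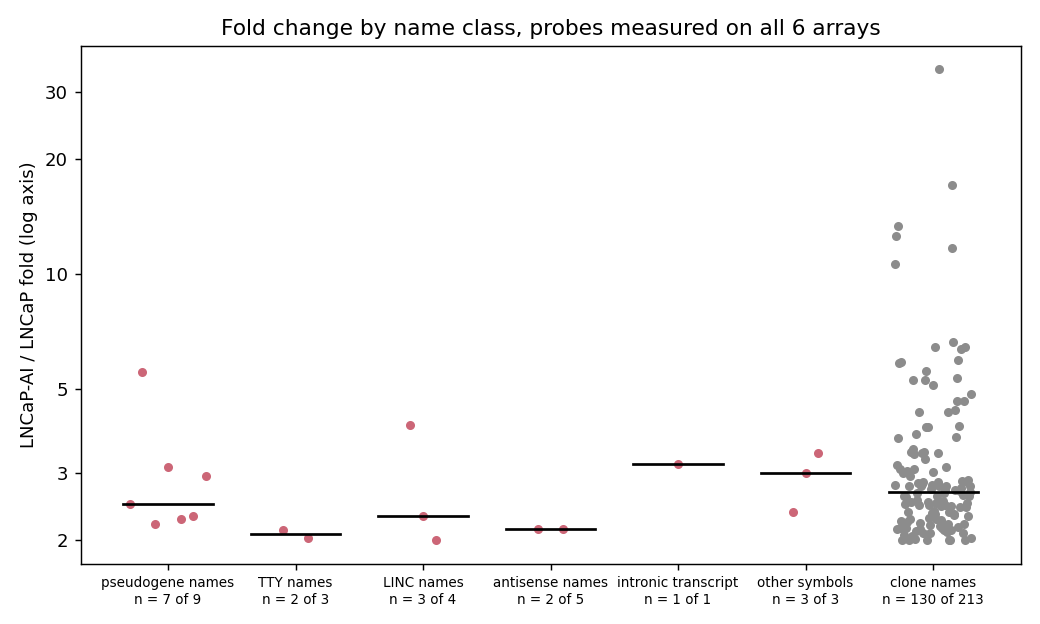
Fold change of LNCaP-AI over LNCaP (y axis, log scale) for each probe of the list that was well above background on all 6 arrays, by name class (x axis, with the number plotted of the number in the class); lines are class medians. The officially named probes lie between 2.01-fold and 5.53-fold, while clone-named probes reach 34.4-fold.

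LNCaP replicate c was the only LNCaP array on the slide of LNCaP-AI, so each probe was also compared within slide 2. Against replicate c the LNCaP-AI mean was higher for all 25 probes, by 0.92 to 3.91 on the log2 scale. The 3.91 was for TTY22, which was undetected in LNCaP. The difference was under 2-fold for HOXA-AS3 (0.92) and MAGI2-AS3 (0.97). Against replicates a and b it was under 2-fold for DLX6-AS2 (0.99), LINC00281 of ENST00000416405 (0.99) and both probes of TTY15 (0.99 and 0.96). The median of the 25 log2 differences was 1.45 against replicate c and 1.25 against replicates a and b. For the 213 clone-named probes these medians were 1.59 and 1.51, and the difference was larger within the slide for 140. Over all tested probes the median of replicate c minus the mean of a and b was -0.05 log2. Among the 25 the difference was larger within the slide for 15 probes, such as CYP4Z2P with 2.67 against 2.19. It was smaller for 10, such as GRM7-AS3 with 1.62 against 2.52 and DSCR4-IT1 with 1.29 against 1.86. CYP4Z2P and GRM7-AS3 were not well above background on any LNCaP array, so their values here are not measured sizes. For GRM7-AS3 the intensity on replicates a and b was the lowest listed on the array. TSPY5P differed little, with 2.49 against 2.46. With slide as a block, limma called 19 of the 25, against 2.18% of tested probes. The 6 that lost the call were LINC00449, SPATA1, MAGI2-AS3, HOXA-AS3 and 1 probe each of LINC00281 and TTY15. In this layout the estimate with slide as a block equals the difference from replicate c, so replicates a and b do not enter it. The within-slide values and the block estimates rest on 1 LNCaP array.

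**Figure D3:**
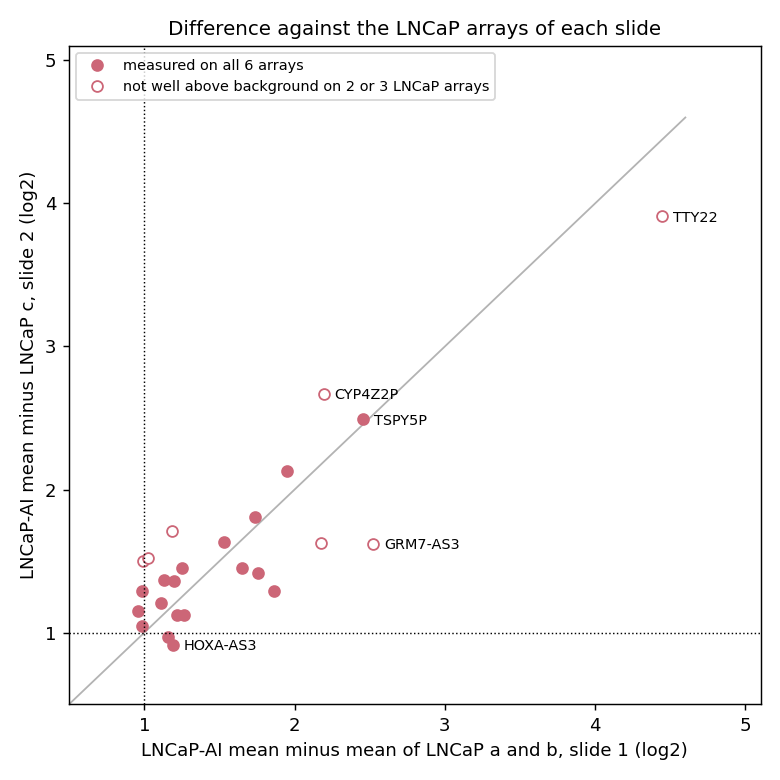
Log2 difference of the LNCaP-AI mean from the mean of LNCaP replicates a and b on slide 1 (x axis) and from LNCaP replicate c on slide 2 (y axis) for the 25 probes; open circles are probes not well above background on 2 or 3 LNCaP arrays, the line marks equal differences and dotted lines mark 2-fold. All points lie above 0.9 on both axes, 2 of them under 2-fold on the y axis and 4 others on the x axis, and TTY22 and GRM7-AS3 lie farthest to the right of the line among the probes without detection in LNCaP.

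Within LNCaP-AI the same arrays tended to be the highest and the lowest over these probes. LNCaP-AI replicate 1 gave the highest LNCaP-AI value for 18 of the 25 probes, or 72.0%, against 61.5% of clone-named probes and 39.3% of all tested probes. Replicate 2 gave the lowest for 17, or 68.0%, against 62.0% and 39.4%. The part of these arrays in the differences was not tested, and without LNCaP-AI replicate 1 the median log2 fold change of the probes measured on every array was 1.18, without replicate 2 it was 1.34, and with all arrays 1.23.

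The size of a difference depended on the spot signal used and how its background was handled, mostly for dim probes. The normexp settings start from the median spot signal instead of the deposited background-subtracted intensity, so these changes were not separated. The offset adds 50 to every corrected spot signal. With normexp correction and an offset of 50, 10 of the 25 probes remained at 2-fold or more, among them TSPY5P at 2.43 log2, TUBA4B at 1.23, and both CHEK2P2 probes at 1.097 and 1.17. The other 15 fell under 2-fold, among them DSCR4-IT1, from 1.67 to 0.92, and LRRC37BP1, from 1.64 to 0.92, although both were measured on every array. The fitted value of TTY22, whose LNCaP side is undetected, went from 4.27 to 1.41 and CYP4Z2P from 2.35 to 0.81. LEF1-AS1 went from 1.99 to 0.85 and CRYBB2P1 from 1.19 to 0.45. These 4 values lay under the bounds given above, as did those of DLX6-AS2 (0.30) and LINC00281 of ENST00000431488 (0.51). With no offset, a setting added after the list's values were known, 18 of the 25 remained, with TTY22 at 2.74, and CYP4Z2P at 1.41, LEF1-AS1 at 1.497 and CRYBB2P1 at 0.81, the last 3 again under their bounds. The direction was unchanged for all 25 in both settings, which reused the arrays that chose the probes. The share of all tested probes at 2-fold was not counted under normexp.

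**Figure D4:**
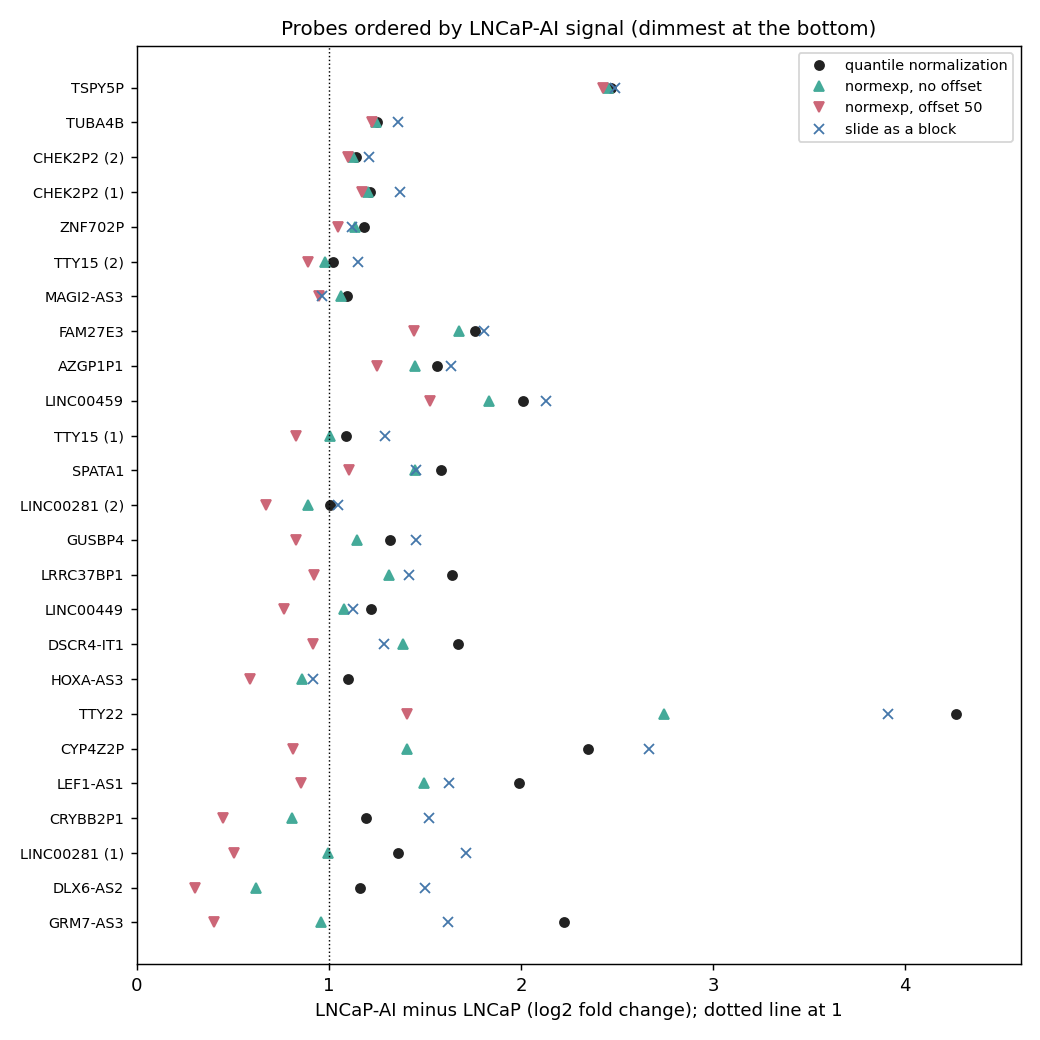
Log2 fold change of LNCaP-AI over LNCaP (x axis) of the 25 probes (y axis, from the lowest LNCaP-AI signal at the bottom) under 4 settings. These are the main processing (labelled quantile normalization), normexp with and without an offset of 50, and slide as a block. All 4 were quantile-normalized, and the dotted line marks 2-fold. The 4 settings lie close together for the upper rows, such as TSPY5P between 2.43 and 2.49, and spread apart in the lower rows, such as TTY22 between 1.41 and 4.27.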

How the data were processed

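LNCaP and LNCaP-AI, 3 arrays each, were profiled on Arraystar Human LncRNA Microarray V3.0. The authors deposited the Agilent Feature Extraction 11.0.1.1 output, in which the intensity of each spot is background-subtracted and detrended but not normalized between arrays. Flags for well above background, saturated (0 spots) and outlying spots are those of the software, and signal over background stands in for depth, which with the number of arrays limits the precision.

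Control spots, 600 spots of negative probes and outlying spots were left out. A floor of 1 was set, and log2 intensities were quantile-normalized between arrays following the study's methods. A probe needed the well-above-background flag on 3 or more of the 6 arrays, and the 39088 such probes were fitted with limma 3.58.1 in R 4.3.3, two-sided, with Benjamini-Hochberg adjustment, after 19 further probes with an outlying spot were dropped. Slides were read from the file headers. Part of the planned promoter search is not reported here. Fits were tested on simulated data. The design build is hg19, and RefSeq names and promoters are of GRCh38.p14.

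All 25 probes are named, and each has 1 spot per array. The probes, name classes and motifs were chosen with earlier results of these data known. Gene symbols and transcripts come from the study's list. The fold changes, p-values and rates of that list were not used. Alternatives were 75th percentile scaling, normexp on the median spot signal (the files used here hold no mean signal), other filters, floors and thresholds, flagged spots kept, a variance trend, slide as a block, the unequal-variance t-test and each array left out.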

Additional observations from a re-analysis of the deposited data

How the results depend on the processing

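No paired analysis was possible because LNCaP arrays carry letters and LNCaP-AI arrays numbers, with no label that pairs them. All 25 probes stayed higher in LNCaP-AI under every setting that tested them. Each setting reused the arrays on which the list was chosen, so this direction is no independent support. With normexp and an offset of 50, 10 probes were called by limma, 10 reached 2-fold and 10 met the limits of the methods' t-test, and the median log2 fold change of probes measured on every array was 0.998 for officially named and 1.04 for clone-named probes, against 1.23 and 1.42. The cause was not tested beyond the offset, without which 18 were called. The change to the median spot signal was not separated from normexp. Apart from slide as a block, the share of all tested probes was not counted for the alternative settings. Nothing particular to these probes is read from the counts in this paragraph. When 1 array at a time was left out, limma called 18 to 25 probes and 18 to 25 reached 2-fold, the limits of the methods' t-test held for 13 to 19, and the medians ran from 1.18 to 1.34 and from 1.34 to 1.49. Without a LNCaP-AI array only 21 probes pass the filter, as the 4 undetected in LNCaP then have 2 detected arrays. In 6 probes (both of TTY15, and DLX6-AS2, HOXA-AS3, MAGI2-AS3 and LINC00281 of ENST00000416405) at least 1 such fit fell under 2-fold. Under 75th percentile scaling, other filters, flagged spots kept, a floor of 10, a variance trend, an adjusted p under 0.01, the unequal-variance t-test and slide as a block, the counts lay between 18 and 25. Signal over background limits the 7 probes not detected on 2 or more LNCaP arrays.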
